A study of Mus musculus with 12 samples.

Results

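The immunity-related GTPases described here are 7 mouse genes, Irgm1, Irgm2, Igtp, Iigp1, Tgtp1, Tgtp2 and Ifi47. They were taken by gene symbol from a table of 50643 genes, and all 7 were among the 16694 genes with enough counts to be tested. RNA was measured in natural killer (NK) cells, innate lymphocytes that secrete interferon gamma and kill infected cells, from the spleens of C57BL/6 mice. The 12 libraries fall into 4 groups of 3, namely wild-type unchallenged, wild-type challenged with the intracellular bacterium Listeria, Mirc11-/- unchallenged and Mirc11-/- challenged. Mirc11 is a cluster of microRNA genes (Mir23a, Mir27a and Mir24-2), and the study's question, by its title, is how that cluster shapes NK cell inflammatory responses. The cells of every group were obtained by negative selection, which depletes other cells and does not label the NK cells, so other spleen cells can remain. The sources used here do not give the animals' age, the dose, route and length of the challenge, or the cells in which Mirc11 is deleted. The labels call the samples biological replicates without tying each to its own animal, so the p-values may measure only the spread between these samples.

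Immunity-related GTPases (IRGs) are large GTP-binding proteins that mouse cells make in response to interferons and that act against bacteria and parasites living inside vacuoles. The regulatory GMS proteins Irgm1, Irgm2 and Igtp (also Irgm3) sit on the cell's own membranes and keep the other members inactive there. The effector GKS proteins, here Iigp1 (Irga6), Tgtp1 and Tgtp2 (Irgb6) and Ifi47 (Irgd), load onto vacuoles that hold the microbe. Interferon gamma acts through its receptor and the kinases Jak1 and Jak2, and the promoters of its target genes often carry GAS elements, while ISRE elements are bound by interferon regulatory factors.

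The stretch just before the start of 6 of the 7 genes is shown because it holds, or lacks, the letters of these elements. Each runs 5′ to 3′ on the gene's own strand, and capitals mark matches to GAS (TTC, any 3 bases, GAA) or ISRE (GAAA, any 2 bases, GAAA, or its reverse complement). The sequences are RefSeq's, build GRCm38.p6, on chromosome 11, from chr11:48871421-48871490 (minus strand, Irgm1), chr11:48992294-48992354 (minus, Tgtp1), chr11:49064253-49064313 (minus, Tgtp2), chr11:58199491-58199551 (plus, Igtp), chr11:58214882-58214942 (plus, Irgm2) and chr11:49076517-49076586 (plus, Ifi47).
Igtp: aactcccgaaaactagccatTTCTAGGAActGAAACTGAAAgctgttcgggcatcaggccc
Irgm2: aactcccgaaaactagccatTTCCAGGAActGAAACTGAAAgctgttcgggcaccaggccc
Tgtp1: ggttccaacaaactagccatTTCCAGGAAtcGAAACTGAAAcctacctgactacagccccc
Tgtp2: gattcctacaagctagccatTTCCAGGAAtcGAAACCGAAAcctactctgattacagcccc
Irgm1: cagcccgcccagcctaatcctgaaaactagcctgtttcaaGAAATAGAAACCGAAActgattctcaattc
Ifi47: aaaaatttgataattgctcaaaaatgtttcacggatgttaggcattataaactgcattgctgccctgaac

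Igtp, Irgm2, Tgtp1 and Tgtp2 shared one arrangement, a GAS match followed after 2 bases by an ISRE match. The GAS match of Igtp ended 37 bases before the RefSeq start, that of Irgm2 67, that of Tgtp2 73 and that of Tgtp1 80. Irgm1 had no GAS match and held a pair of ISRE matches that overlap each other, between 30 and 15 bases before its start. The Ifi47 window held neither. Each gene's window was taken at 1 of its starts, and other annotated starts of these genes were not searched. A missing match, as of GAS in Irgm1, therefore describes that window only. Both strands of windows of 300 bases, from 250 before to 50 after a start, were searched in 32851 RefSeq promoters of 27025 genes, of which 8.298% held GAS, 3.443% held ISRE and 0.454% held both. The exact arrangement occurred in 5 promoters (0.0152%), those of the 4 members and of Gm12185, another IRG gene. These promoters are related copies and are not independent of each other, and a match describes letters only, not a bound site.

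**Figure D1:**
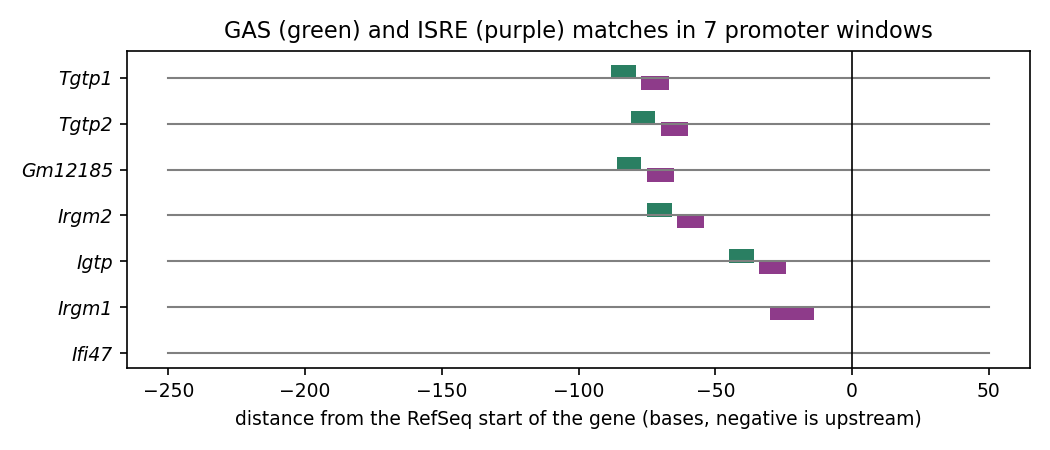
GAS (green) and ISRE (purple) matches in the 300-base promoter windows of 6 members and of the IRG gene Gm12185, by distance in bases from the RefSeq start (vertical line, negative upstream). In 5 genes a GAS match is followed after 2 bases by an ISRE match, Irgm1 has overlapping ISRE matches only, and Ifi47 has none.

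Library totals ran from 17624530 to 23665679 counts, and levels below are in CPM, the library's counts scaled by its total. Several signals of other cells moved with the groups. The summed level of 10 NK markers was 8065 to 9084 CPM in unchallenged and 4705 to 4806 in challenged wild-type libraries, against 8460 to 8580 and 6169 to 6701 in Mirc11-/- libraries. Summed neutrophil markers (12 genes) were 89.2 to 95.7, 2043 to 2421, 527 to 547 and 1007 to 1498 CPM in the same order of groups. Summed macrophage markers (12 genes) were 418 to 466, 1187 to 1373, 615 to 636 and 762 to 1013 CPM. Erythroid markers (7 genes) were far higher in Mirc11-/- libraries, with sums of 7571 to 8774 and 1143 to 1547 CPM in unchallenged and challenged wild-type against 24269 to 26969 and 13403 to 16155 CPM in Mirc11-/- libraries. Sums in the same order of groups were 1323 to 1488, 1542 to 1624, 996 to 1017 and 1407 to 1438 CPM for 8 B cell markers, 251 to 284, 167 to 173, 177 to 196 and 264 to 295 CPM for 8 T cell markers, and 866 to 939.6, 531 to 615, 978 to 1057 and 631 to 789.9 CPM for 10 dendritic cell markers. The dendritic sum was carried by Itgax, at means of 802 and 158 CPM in unchallenged and challenged wild-type libraries; on wild-type challenge 5 of the 10 fell and 4 rose, among them Zbtb46 (12.1 to 44.1 CPM), Flt3 (14.0 to 49.1 CPM) and Bst2 (32.0 to 306 CPM). On wild-type challenge 8 of the 10 NK markers fell and Prf1 rose, from a mean of 641 to 904 CPM. Klrb1c fell from 956 to 147 CPM and Ncr1 from 820 to 193 CPM, while Gzma stood at 1718 and 1628 CPM. In Mirc11-/- libraries Klrb1c went from 933 to 604 CPM and Prf1 from 708 to 572 CPM. None of the markers in these lists was at 0 in all libraries. Xist, the RNA of the inactive X chromosome, was 0.362 to 1.08 CPM in unchallenged Mirc11-/- and 526 to 2025 CPM in the other libraries, and the Y-linked Ddx3y was 44.1 to 135 CPM in all Mirc11-/- libraries, 34.6 in unchallenged wild-type replicate 4 and at most 0.133 in the other wild-type libraries. All challenged Mirc11-/- libraries held transcripts of both sexes. Genotype and these sex-linked transcripts cannot be told apart, before or after challenge. Mir23a, Mir27a and Mir24-2 had 0 counts in all 12 libraries, so they check nothing about the genotype labels. The part of these markers in the results below was not tested; in bulk samples fewer cells of a type and less RNA per cell cannot be told apart.

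Without challenge, wild-type NK cell libraries held all 7 IRG transcripts, at levels that differed widely between genes. To compare genes, CPM were divided by the length of each gene's merged exons. That length takes in all annotated transcripts, and the order of genes depends on it. In plain CPM Irgm1 (mean 75.3) stood above Igtp (67.5). The places of Tgtp1 and Tgtp2 also rest on a split of reads that is uncertain, as given below. Ifi47 was the highest at 58.9 ± 1.35 CPM per kb (SD, n = 3), followed by Igtp at 33.4 ± 2.38 and Tgtp2 at 28.4 ± 1.24 CPM per kb. Irgm1 (13.0 ± 0.431) and Irgm2 (12.1 ± 0.54) had overlapping ranges in CPM per kb. Tgtp1 stood at 6.38 ± 0.599 and Iigp1, the lowest, at 1.14 ± 0.127 CPM per kb. Unchallenged Mirc11-/- libraries gave the same order of genes.

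After challenge of wild-type mice all 7 genes rose, between 3.68-fold for Ifi47 and 46.4-fold for Iigp1, with a median log2 fold change of 3.04. Over all tested genes the median was -0.01, and 32.4% of them rose and 30.9% fell at an edgeR adjusted p below 0.05; of the called genes 51.2% had risen, or 42.8% under upper-quartile scaling. No library of one treatment overlapped the other for any member. The share of all tested genes without overlap was not counted, here or in the comparisons below, so non-overlap is given as a description.

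Of the regulators, Irgm1, whose product keeps effectors off host membranes, was at 76.3, 77.0 and 72.4 CPM in unchallenged wild-type replicates 2, 3 and 4. After challenge it was at 593, 558 and 571 CPM in replicates 1, 2 and 3. Irgm1 thus rose by 3.04 ± 0.08 on the log2 scale (± standard error, edgeR adjusted p = 3.25e-13). Igtp went from 66.4, 72.7 and 63.3 CPM to 445, 454 and 466 CPM, a log2 rise of 2.86 ± 0.09 (adjusted p = 1.06e-12). Irgm2 went from 44.7, 46.4 and 42.5 CPM to 265, 272 and 281 CPM, a log2 rise of 2.72 ± 0.08 (adjusted p = 9.77e-13). The 3 regulators were close to each other in size of response, and each group of 3 libraries was tight relative to the gap between treatments.

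The effectors covered a wider range. Iigp1, a GTPase that assembles on vacuoles, was the lowest member before challenge at 7.37, 6.65 and 5.89 CPM and reached 312, 286 and 259.8 CPM after it. Its log2 change of 5.53 ± 0.17 was the largest of the members (adjusted p = 8.85e-12). Tgtp1 went from 22.6, 19.0 and 19.7 CPM to 655, 633 and 601 CPM, a log2 rise of 5.05 ± 0.11 (adjusted p = 2.07e-13). Tgtp2, a near-identical copy of Tgtp1, started higher at 81.1, 87.6 and 81.5 CPM and reached 689, 664 and 675 CPM, a log2 rise of 3.12 ± 0.09 (adjusted p = 4.85e-13). The copies ended at similar CPM although they began apart. Of the sequence of their transcripts cut into 50-base words, 79.4% of those of Tgtp1 also occur in Tgtp2 and 85.8% of those of Tgtp2 occur in Tgtp1, so the split of reads between them is uncertain. Their sum rose by 3.76 ± 0.09 on the log2 scale (adjusted p = 3.25e-13).

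Ifi47 was the most abundant member before challenge and rose the least. It stood at 142, 149 and 145 CPM in unchallenged and at 431, 531 and 535 CPM in challenged wild-type libraries, and replicate 1 was the low one of the challenged group. The log2 change was 1.88 ± 0.10 (adjusted p = 2.81e-10).

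**Figure D2:**
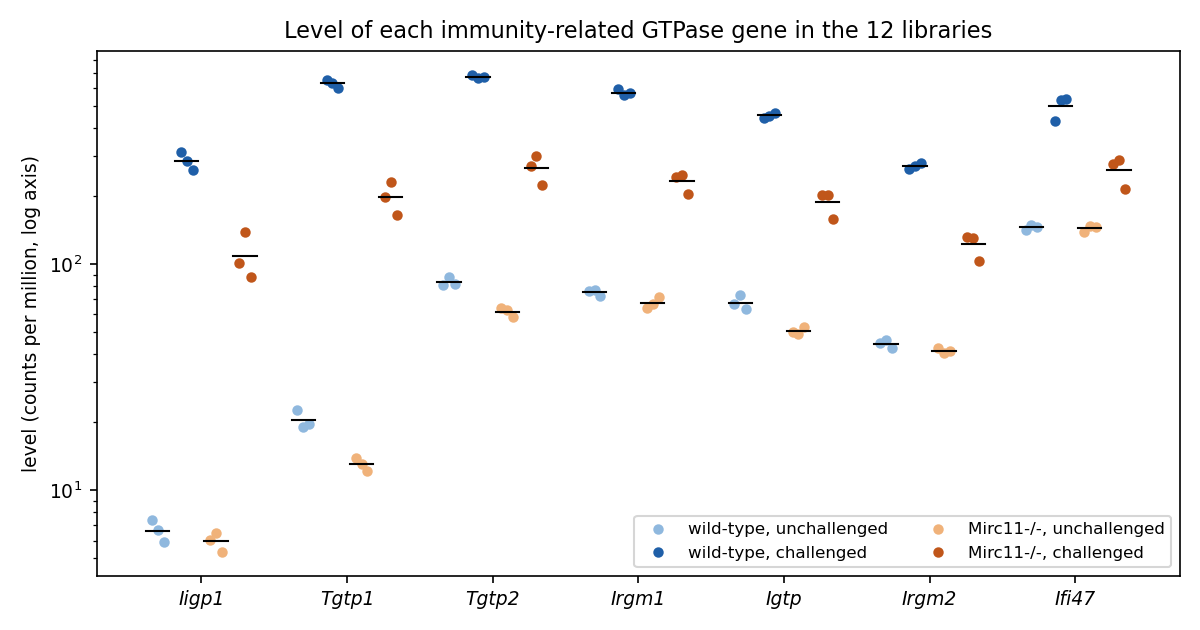
CPM of the 7 IRG genes in each of the 12 libraries on a log axis; points are libraries, horizontal lines group means, and colours the 4 groups. For every gene the challenged wild-type libraries lie above the challenged Mirc11-/- libraries, which lie above all unchallenged libraries.

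Because the genes rose by different amounts, the make-up of the family's counts was different after challenge. The 7 genes together held 443 ± 14.0 CPM in unchallenged and 3392 ± 5.35 CPM in challenged wild-type libraries. Ifi47 made up 32.8 ± 0.815% of these counts before and 14.7 ± 1.73% after challenge, while Tgtp1 went from 4.62 ± 0.495% to 18.6 ± 0.786% and Iigp1 from 1.497 ± 0.157% to 8.43 ± 0.771%. Irgm1 held 17.0 ± 0.296% before and 16.9 ± 0.544% after. The regulators Irgm1, Irgm2 and Igtp made up 42.2 ± 0.762% before and 38.4 ± 0.568% after, and the libraries of the treatments did not overlap in that share. Shares were not tested and are given as descriptions. In Mirc11-/- libraries the regulators' share was 41.5 ± 1.12% before and 39.5 ± 1.55% after, with overlapping libraries. The shifts of single genes ran the same way there, with Ifi47 at 37.5 ± 0.778% before and 18.9 ± 0.41% after, Tgtp1 at 3.40 ± 0.264% and 14.4 ± 0.54%, and Iigp1 at 1.55 ± 0.154% and 7.88 ± 1.01%. In CPM per kb, the order after challenge of wild-type mice was Tgtp2 (230.1 ± 4.28) and Igtp (225 ± 5.41), then Ifi47 (202 ± 23.8) and Tgtp1 (197 ± 8.34), then Irgm1 (98.8 ± 3.06), Irgm2 (73.8 ± 2.15) and Iigp1 (49.1 ± 4.49). Within the first and within the second of these pairs the ranges overlapped.

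**Figure D3:**
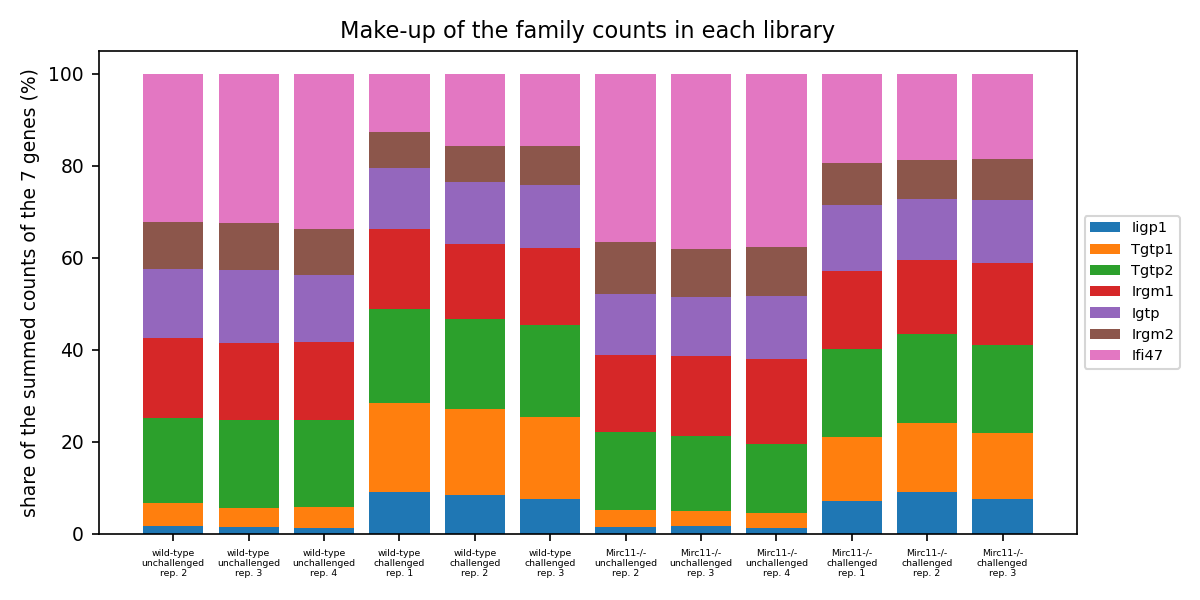
Share of each member in the summed counts of the 7 IRG genes (%), 1 bar per library, grouped by genotype and treatment. The Ifi47 share is smaller and the Tgtp1 and Iigp1 shares are larger in the challenged libraries of both genotypes.

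The Mirc11-/- libraries also showed a rise of all 7 genes after challenge, from 1.79-fold for Ifi47 to 18.2-fold for Iigp1, with a median log2 fold change of 1.88. Over all tested genes, 15.6% rose and 11.5% fell in this comparison, and the median was -0.01; of the called genes 57.5% had risen, or 46.7% under upper-quartile scaling. As in wild-type libraries, Iigp1, Tgtp1 and Tgtp2 rose the most and Ifi47 the least. The challenge comparison in Mirc11-/- also sets libraries with almost no Xist RNA against libraries that hold it, and the 2 cannot be told apart.

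Irgm1 was at 64.1, 66.9 and 71.8 CPM in unchallenged Mirc11-/- replicates 2, 3 and 4 and at 244, 248 and 205 CPM in challenged replicates 1, 2 and 3. It rose by 1.77 ± 0.07 on the log2 scale (adjusted p = 2.49e-10). Igtp went from 50.04, 49.1 and 52.7 CPM to 203, 202 and 159 CPM, a log2 rise of 1.88 ± 0.09 (adjusted p = 6.38e-10). Irgm2 went from 42.5, 40.4 and 41.4 CPM to 133, 131 and 104 CPM, a log2 rise of 1.55 ± 0.08 (adjusted p = 2.46e-09). Replicate 3 was the lowest of the challenged Mirc11-/- libraries for each regulator.

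Among the effectors, Iigp1 was at 6.01, 6.47 and 5.35 CPM before and at 101, 139 and 87.8 CPM after challenge in Mirc11-/- libraries, a log2 rise of 4.18 ± 0.16 (adjusted p = 1.08e-09). Tgtp1 went from 13.9, 13.1 and 12.2 CPM to 199, 230.5 and 165 CPM, a log2 rise of 3.91 ± 0.11 (adjusted p = 1.92e-11). Tgtp2 went from 63.8, 62.6 and 58.3 CPM to 273, 299.7 and 224 CPM, a log2 rise of 2.10 ± 0.08 (adjusted p = 1.95e-10). Replicate 2 was the highest and replicate 3 the lowest of the challenged libraries for these 3 effectors. Ifi47 went from 139, 147 and 147 CPM to 276, 288 and 215 CPM, a log2 rise of 0.84 ± 0.10 (adjusted p = 1.38e-05), with no overlap between the treatments. The family's summed level was 384 ± 4.60 CPM before and 1375 ± 194 CPM after challenge.

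Between the genotypes without challenge, 3 of the 7 genes were lower in Mirc11-/- libraries. Over all tested genes 6.64% were higher and 5.07% lower, with a median of -0.01. Tgtp1 was lower by a log2 of -0.63 ± 0.11 (adjusted p = 0.00119), Tgtp2 by -0.42 ± 0.08 (adjusted p = 0.00296) and Igtp, a regulator, by -0.40 ± 0.09 (adjusted p = 0.00544). For these 3 genes every Mirc11-/- library was below every wild-type library, a trait that was not counted over all tested genes. The Igtp call was the closest to the threshold, since without wild-type replicate 3 its log2 difference was -0.32 with an adjusted p of 0.0499. The sum of Tgtp1 and Tgtp2 was lower by -0.46 ± 0.09 (adjusted p = 0.00175).

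The remaining 4 members did not pass the test at rest. Irgm1 differed by -0.14 with a 95% confidence interval of -0.29 to 0.02 (adjusted p = 0.302), although its libraries did not overlap. Irgm2 differed by -0.09 (interval -0.26 to 0.09, adjusted p = 0.628) and Iigp1 by -0.14 (interval -0.54 to 0.27, adjusted p = 0.76). Ifi47, at 146 ± 3.33 CPM in wild-type and 144 ± 4.51 CPM in Mirc11-/- libraries, differed by 0.00 (interval -0.20 to 0.21, adjusted p = 0.991). Summed erythroid, neutrophil, macrophage and dendritic cell markers were higher and summed B and T cell markers lower in the unchallenged Mirc11-/- libraries. Summed NK markers overlapped in range. The part of all these markers in the differences at rest was not tested.

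After challenge, all 7 genes were lower in Mirc11-/- than in wild-type libraries, and the libraries of the genotypes did not overlap for any of them. Overlap was not counted over all tested genes. Mean CPM in challenged Mirc11-/- libraries was 31.5% (Tgtp1) to 52.1% (Ifi47) of that in challenged wild-type libraries. Over all tested genes 22.7% were higher and 25.9% lower, with a median of 0.00, against -1.40 for the members; of the called genes 46.7% were higher, or 56.7% under upper-quartile scaling. Tgtp1 differed most, by a log2 of -1.76 ± 0.10 (adjusted p = 1.61e-09). Iigp1 followed at -1.49 ± 0.13 (adjusted p = 8.17e-07) and Tgtp2 at -1.45 ± 0.08 (adjusted p = 2.41e-09). The regulators lay close together, with Irgm1 at -1.40 ± 0.07, Igtp at -1.37 ± 0.08 and Irgm2 at -1.25 ± 0.08 (adjusted p at most 6.51e-09). Ifi47 differed least, by -1.04 ± 0.10 (adjusted p = 4.59e-07). Without unchallenged wild-type replicate 4 (the wild-type library with Y-linked RNA) and challenged Mirc11-/- replicate 3 (the library with the most Xist RNA of its group) together, the 7 differences ran from -1.66 to -0.92. Y-linked Ddx3y separated the challenged genotypes too, at 44.1 to 80.5 CPM in Mirc11-/- and at most 0.133 CPM in wild-type libraries, so genotype and sex-linked RNA cannot be told apart here.

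The genotype difference after challenge was larger than that at rest for each gene, which is the same as a smaller challenge response in Mirc11-/- than in wild-type libraries. This difference of responses was tested directly and passed for all 7 members, all with a difference below 0, against 16.7% of all tested genes with a difference above and 18.5% with one below 0; of the called genes 47.5% were above 0, or 55.3% under upper-quartile scaling. The member median was a log2 of -1.13, and the median of all tested genes was 0.00. Iigp1 had the largest difference of responses at -1.35 ± 0.23 (adjusted p = 0.000466) and also the largest error. Irgm1 stood at -1.27 ± 0.10 (adjusted p = 2.64e-07) and Igtp, with the smallest, at -0.98 ± 0.12 (adjusted p = 1.39e-05). On the log2 scale the Mirc11-/- response was 44.7% of the wild-type response for Ifi47 and 77.5% for Tgtp1, with a median of 65.9%. The genotype and challenge comparisons share their groups of libraries, so they are not independent of one another. Summed neutrophil, macrophage and B cell markers were also lower in challenged Mirc11-/- than in challenged wild-type libraries. Summed NK, erythroid, T cell and dendritic cell markers were higher. The higher dendritic sum was carried by Itgax, at means of 158 CPM in challenged wild-type and 493 CPM in challenged Mirc11-/- libraries. Of the 10 dendritic cell markers 6 were higher and 3 lower. Bst2 (306 and 112 CPM), Flt3 (49.1 and 20.4 CPM) and Zbtb46 (44.1 and 15.3 CPM) were lower. Some genes went against their sum: 2 neutrophil, 1 macrophage and 1 B cell marker were higher, and 1 NK and 3 dendritic cell markers lower. The part of all these markers in the members' difference was not tested. The sex-linked transcripts also differed between the groups of this comparison and cannot be told apart from genotype in it.

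**Figure D4:**
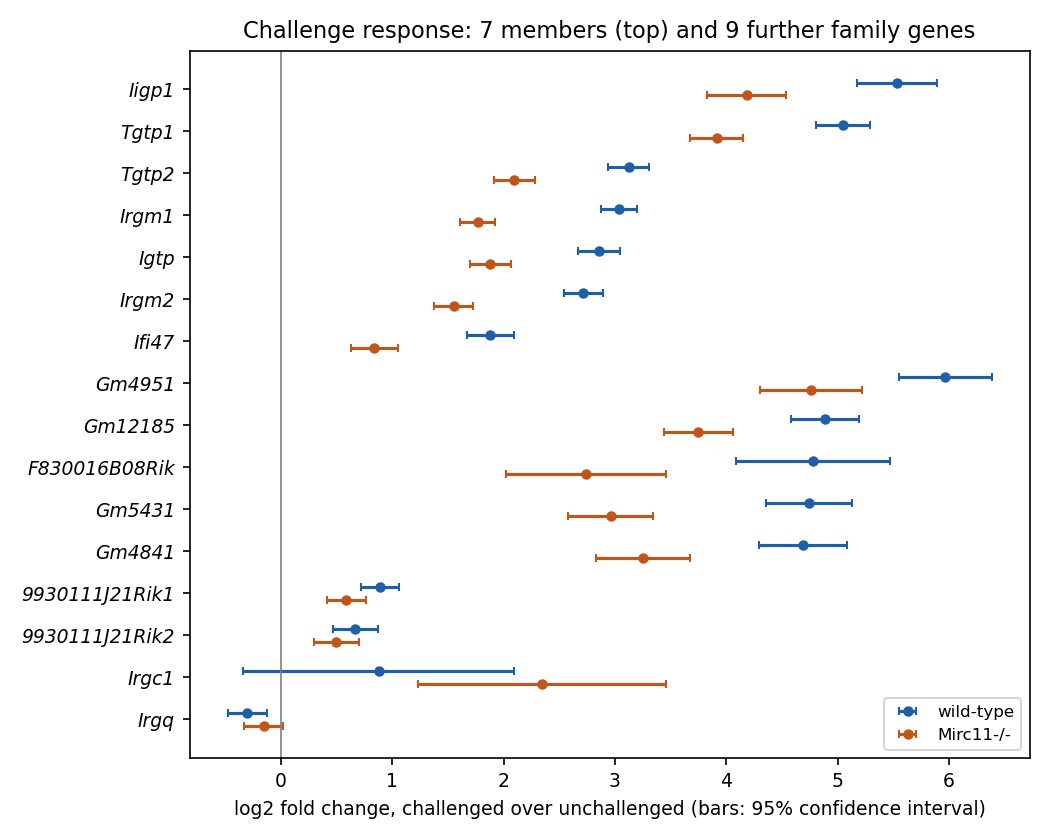
Log2 fold change of challenged over unchallenged libraries for the 7 IRG genes (top) and 9 further IRG genes, in wild-type (blue) and Mirc11-/- (orange), with bars for 95% confidence intervals. All 7 genes lie to the right of 0 in both genotypes, with the Mirc11-/- point to the left of the wild-type point.

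The table held 9 further IRG genes from a list of 10, most of them known by clone-like names. In wild-type libraries 7 of the 9 rose and 1 fell after challenge, with a median of 4.69, and in Mirc11-/- libraries 8 rose, with a median of 2.74. Over all tested genes 32.4% rose and 30.9% fell in wild-type libraries, and 15.6% rose in Mirc11-/- libraries. Gm4951, Gm12185, F830016B08Rik, Gm5431 and Gm4841 rose by a log2 of 4.69 to 5.97 in wild-type libraries from means of 0.626 to 5.27 CPM, rises near in size to those of Iigp1 and Tgtp1. Gm4951 had the largest wild-type rise of these, at 5.97 ± 0.19 (adjusted p = 1.83e-12), and rose by 4.76 ± 0.21 in Mirc11-/- libraries (adjusted p = 5.69e-10). 9930111J21Rik1 and 9930111J21Rik2, already at means of 72.2 and 259 CPM, rose by 0.89 ± 0.08 and 0.67 ± 0.10 in wild-type libraries. Irgq, a divergent relative, fell by 0.30 in wild-type libraries (adjusted p = 0.0049).
After challenge, 7 of the 9 were lower in Mirc11-/- libraries, and 5 of the 9 had a difference of responses below 0. Over all tested genes 25.9% were lower and 22.7% higher after challenge, and 18.5% had a difference of responses below 0. Irgc1, a gene best known from testis, and Irgq were higher, at log2 1.47 ± 0.47 (adjusted p = 0.0201) and 0.25 ± 0.08 (adjusted p = 0.0216). Irgc1 stood at 3.04, 1.55 and 7.30 CPM in challenged Mirc11-/- libraries, and neither gene passed the test without challenged Mirc11-/- replicate 3, without challenged wild-type replicate 1 or without challenged wild-type replicate 2. At rest, 9930111J21Rik1 alone was lower in Mirc11-/- libraries (-0.28 ± 0.08, adjusted p = 0.0352), against 5.07% of all tested genes. No further IRG gene passed that test (0 of 9) without unchallenged wild-type replicate 2 or 3, without unchallenged Mirc11-/- replicate 2 or 3, or without challenged wild-type replicate 2.

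Of 19 genes of interferon gamma signalling, 15 rose and 1 fell after challenge in wild-type libraries, with a median log2 change of 0.96. In Mirc11-/- libraries 12 rose and 2 fell, with a median of 0.31. Over all tested genes 32.4% rose and 30.9% fell in wild-type libraries, and 15.6% rose and 11.5% fell in Mirc11-/- libraries. Ifng, the cytokine itself and a product of NK cells, was at 89.2, 84.8 and 112 CPM in unchallenged and 282, 276 and 267 CPM in challenged wild-type libraries, a log2 rise of 1.63 ± 0.13 (adjusted p = 1.63e-07). In Mirc11-/- libraries it went from 72.6, 71.0 and 75.0 CPM to 93.5, 106 and 139 CPM, a log2 rise of 0.62 ± 0.13 (adjusted p = 0.00357). Its challenge response was thus smaller there by -1.01 ± 0.18 (adjusted p = 0.000903). Challenged Mirc11-/- replicate 3 had the highest Ifng of its group and the lowest level of all 7 IRG genes.

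The receptor and signalling genes did not all move alike. Ifngr1, the ligand-binding chain, differed by 0.02 after challenge in wild-type libraries (adjusted p = 0.74) and fell by 0.35 in Mirc11-/- libraries (adjusted p = 0.000359). Ifngr2, the signalling chain, rose by 1.50 ± 0.08 in wild-type (adjusted p = 2.21e-10) and by 0.46 ± 0.08 in Mirc11-/- libraries (adjusted p = 0.000424). Jak1 was the 1 gene of this list that fell in wild-type libraries, by 1.07 (adjusted p = 6.07e-10), and 2 fell under upper-quartile scaling. At rest, Ciita and Nlrc5, activators of antigen presentation genes, were lower in Mirc11-/- libraries, by -0.36 ± 0.08 (adjusted p = 0.00909) and -0.41 ± 0.08 (adjusted p = 0.00362). Of the list, 3 genes passed that test, or 1 without unchallenged wild-type replicate 3, while 5.07% of all tested genes were lower at rest.
Stat2 rose by 2.25 ± 0.06 in wild-type and 1.01 ± 0.06 in Mirc11-/- libraries, and Irf1, a factor that binds ISRE elements, by 1.304 ± 0.07 and 0.35 ± 0.07. Socs1, an inhibitor of the receptor's kinases, rose by 2.69 ± 0.13 and 1.04 ± 0.12, and its difference of responses was the largest of the list at -1.65 ± 0.17 (adjusted p = 3.87e-06). After challenge 16 of the 19 genes were lower and 1, Jak1, higher in Mirc11-/- libraries, and 13 had a difference of responses below 0. Over all tested genes 25.9% were lower and 22.7% higher, and 18.5% had a difference of responses below 0.

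**Figure D5:**
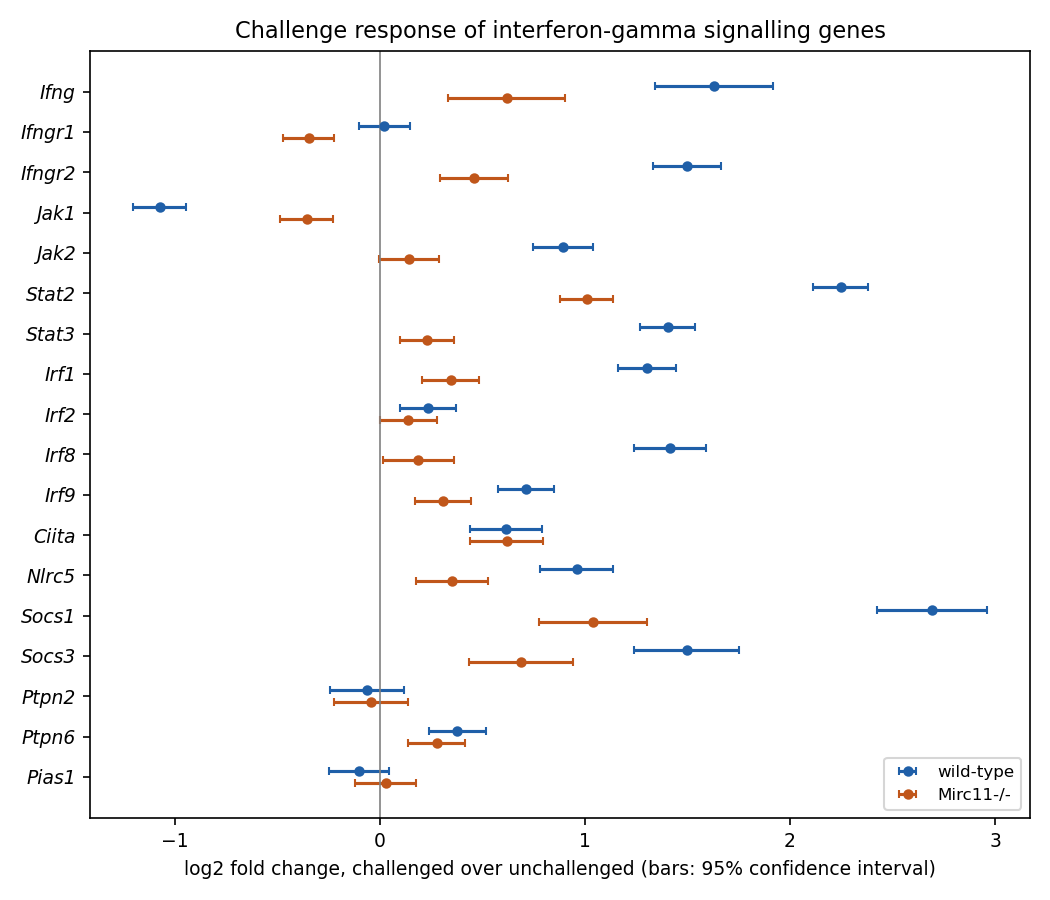
Log2 fold change of challenged over unchallenged libraries for genes of interferon gamma signalling, in wild-type (blue) and Mirc11-/- (orange), with bars for 95% confidence intervals. Socs1 and Stat2 lie farthest to the right in wild-type, Jak1 lies to the left of 0 in both genotypes, and the points of Ciita coincide.

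The guanylate-binding proteins (GBPs), the very large inducible GTPase Gvin1 and the Mx proteins are other interferon-induced GTPases of cell defence. All 14 genes of this list rose after challenge in both genotypes, with median log2 changes of 2.79 in wild-type and 1.34 in Mirc11-/- libraries. Over all tested genes 32.4% rose in wild-type and 15.6% in Mirc11-/- libraries. The GBP gene Gbp2 rose by 4.08 ± 0.09 and 2.63 ± 0.08 in the genotypes, and Gbp5 by 3.06 ± 0.09 and 1.54 ± 0.08. After challenge 13 of the 14 were lower in Mirc11-/- libraries, and 10 had a smaller response there. Over all tested genes 25.9% were lower, and 18.5% had a difference of responses below 0. The exception after challenge was Gbp2b, with means of 10.9 ± 0.715 and 11.7 ± 2.24 CPM in the challenged groups (log2 0.00 ± 0.17, adjusted p = 0.996). Gbp6 and Gbp10, like Tgtp1, Tgtp2 and Igtp, were lower at rest in Mirc11-/- libraries, by -1.15 ± 0.13 (adjusted p = 2.49e-05) and -0.81 ± 0.13 (adjusted p = 0.0007). In all 4 of the 14 passed that test at rest, while 5.07% of all tested genes were lower there.

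Loading of IRG proteins onto vacuoles depends on conjugation proteins of autophagy and draws in ubiquitin ligases and adaptors. A list of 18 such genes did not move as a group, with medians of -0.01 and 0.01 after challenge in wild-type and Mirc11-/- libraries. In wild-type libraries 8 rose and 5 fell, against 32.4% and 30.9% of all tested genes. In Mirc11-/- libraries 3 rose and 2 fell, against 15.6% and 11.5% of all tested genes. The count of 2 was 1 without unchallenged Mirc11-/- replicate 2, 3 or 4 or with a replicate block, and 4 under upper-quartile scaling. Rnf213, a ubiquitin ligase, rose by 2.47 ± 0.09 in wild-type (adjusted p = 3.73e-12) and 1.40 ± 0.08 in Mirc11-/- libraries (adjusted p = 1.25e-08). Gabarap, a ubiquitin-like protein of autophagy, rose by 0.64 ± 0.06 in wild-type libraries and differed by 0.10 in Mirc11-/- libraries (adjusted p = 0.207). Sqstm1, an adaptor that binds ubiquitin, rose by 0.61 ± 0.07 in wild-type libraries and differed by 0.00 in Mirc11-/- libraries (adjusted p = 0.972). Traf6, a ubiquitin ligase named in the series title, rose by 0.21 ± 0.07 in wild-type libraries (adjusted p = 0.0119) and differed by -0.06 in Mirc11-/- libraries (adjusted p = 0.6). After challenge 8 of the 18 were lower and 4 higher in Mirc11-/- libraries, against 25.9% and 22.7% of all tested genes.

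Likeness to the IRG genes was measured as the root mean square difference, over the 12 libraries, between a gene's centred log2(CPM + 1) profile and the members' mean profile. Among 11196 other genes with a mean of at least 5 CPM the median distance was 1.50. Of the 8 closest, 7 carry a gene symbol, namely Mx2 (0.114), Slfn1 (0.125), the IRG gene Gm4841 (0.148), Oas1g (0.164), Tgm2 (0.169), Parp12 (0.205) and Gpnmb (0.207). The added 1 CPM shrinks the profile of a gene low at rest, so a short distance need not mean a like fold change. Gm4841, Oas1g and Gpnmb stood at means of 0.801, 1.66 and 1.99 CPM in unchallenged wild-type libraries. Their log2 rises on wild-type challenge were 4.69, 4.38 and 4.18, against a member median of 3.04. Slfn1 and Parp12 rose by 3.28 and 3.16. Of the members themselves Tgtp2 was the nearest to the mean profile at 0.14, Irgm1 and Igtp followed at 0.232 and 0.252, and Iigp1 was the farthest at 0.915. Mx2, an antiviral GTPase, rose by a log2 of 3.50 in wild-type and 2.50 in Mirc11-/- libraries. Parp12 and Gpnmb were, like Tgtp1, Tgtp2 and Igtp, lower at rest in Mirc11-/- libraries (-0.58 ± 0.12 and -0.85 ± 0.26, adjusted p = 0.00422 and 0.0443).

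By the GENCODE vM21 annotation of GRCm38, 6 of the 7 genes lie on chromosome 11 in 2 clusters. The first spans 235.0 kb from 48861968 to 49096974 and holds Irgm1 (48861968 to 48871683, minus strand), Tgtp1 (48985327 to 48994172, minus), Tgtp2 (49057194 to 49064206, minus), Ifi47 (49076587 to 49096974, plus) and 4 further IRG genes. The second, 9.10 Mb away, holds Igtp (58199556 to 58207591, plus) and Irgm2 (58199618 to 58222782, plus). The annotated bodies of Igtp and Irgm2 overlap by 7974 bases on one strand, and 11.8% of the 50-base words of Igtp occur in Irgm2. Gm12185 overlaps Tgtp1 by 6900 bases on the same strand. Counts of these pairs may therefore not be fully separate. Irgm1 shared 0.31% of its words with any other gene and Ifi47 2.54%, with Olfr56.

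The 7 genes' neighbours moved less uniformly. Iigp1 lies alone among the 7 on chromosome 18 (60376027 to 60392634, plus strand). Within 100 kb of a member lay 28 genes outside the IRG list, 20 of them tested. After challenge of wild-type mice 10 of the 20 rose and 4 fell, with a median of 0.41, and 7 rose in Mirc11-/- libraries. Over all tested genes 32.4% rose and 30.9% fell in wild-type libraries, and 15.6% rose in Mirc11-/- libraries. Olfr56, whose annotated span on the plus strand covers Tgtp1, Tgtp2 and Ifi47, rose by 2.42 in wild-type libraries (adjusted p = 6.21e-08). It shares 50-base words with Ifi47, which lies on the same strand, and none with Tgtp1 or Tgtp2. How far its counts are separate from those of the 7 genes was not tested. Gm12250, 10544 bases from Igtp, is a further IRG gene by its RefSeq synonym Irgb10, though GENCODE vM21 calls it a processed pseudogene, and was picked out after its values were seen. It stood at 14.6, 14.6 and 15.8 CPM in unchallenged and 117, 113 and 114 CPM in challenged wild-type libraries, against 14.2, 13.9 and 12.5 and then 49.8, 52.8 and 38.6 CPM in Mirc11-/- libraries. Its log2 rises of 3.03 ± 0.10 and 1.79 ± 0.10 lay within the range of the 7 genes. Without it, 9 of 19 neighbours rose and 4 fell in wild-type libraries, with a median of 0.25. Among the 9 were Olfr56 and the pseudogenes BC023105 (log2 5.53) and Gm12187 (log2 3.12). Each of them shares 50-base words with an IRG gene, so the 9 do not all stand apart from the family.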

How the data were processed

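Per the labels' protocols, Trizol was used for extraction, and polyadenylated RNA went into Illumina TruSeq libraries. Trim Galore 0.4.1, Bowtie2 2.2.8, RSEM 1.3.0, bcl2fastq and GRCm38 are named in the submitters' processing notes. The values deposited by the authors are counts per gene and library, whole numbers without normalization. The sources used here do not give the rounding of RSEM's estimates, the annotation release or the use of strand. Reads carry no molecular identifiers. Every value column of the table belongs to 1 of the 12 samples.

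The counts of all 12 libraries were fitted together with edgeR 4.0.16 (R 4.3.3), with TMM scaling, its expression filter over the 4 groups and a robust quasi-likelihood F test. For each of the 5 contrasts, p-values were adjusted by Benjamini and Hochberg's method over the 16694 tested genes, with calls at an adjusted p below 0.05. Standard errors follow from the fold change and the F statistic. CPM use library totals, and group values are mean ± SD of 3 libraries. The fit was tested on simulated counts. Pairs of libraries were checked for duplicates, and none was found.

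The members and gene lists were chosen with earlier results of these data known. Named genes were all members, the further IRG genes, fixed pathway genes, up to 4 genes per list with the smallest p in wild-type challenge and up to 2 in the difference of responses, and the 8 nearest profiles. Gm12250, and a few list genes named for an exception, were chosen after their values were seen. A gene of the interferon gamma list is counted there and is not reported here by itself. Promoters came from RefSeq (GRCm38.p6). Windows of listed genes on chromosome 18, where Iigp1 lies, were left out, so 6 of the 7 members have one here. Positions came from GENCODE vM21, which held 50338 of the 50643 gene identifiers.

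Alternatives were other scalings and tools (DESeq2 1.42.0, limma 3.58.1), no filter, separate fits, Tgtp1 and Tgtp2 summed, a replicate block, and leaving out libraries.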

Additional observations from a re-analysis of the deposited data

Results flagged for a closer look

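For all 7 genes the challenge response differed between the genotypes in a direct test. The response in Mirc11-/- libraries minus that in wild-type libraries, on the log2 scale, was -1.27 for Irgm1, -1.16 for Irgm2, -0.98 for Igtp, -1.35 for Iigp1, -1.13 for Tgtp1, -1.03 for Tgtp2 and -1.04 for Ifi47 (edgeR adjusted p at most 0.000466). In each case both genotypes rose and Mirc11-/- libraries rose less. Without unchallenged wild-type replicate 4 and challenged Mirc11-/- replicate 3 the differences ran from -1.17 to -0.83 (adjusted p at most 0.00114). The libraries left still differed in Y-linked RNA between the genotypes, so this fit cannot separate genotype from sex-linked RNA.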

How the results depend on the processing

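The calls of the 7 genes were the same under all 22 alternatives (21 for the difference of responses). Log2 fold changes of called members ran from 1.77 to 5.61 for challenge in wild-type, 0.78 to 4.31 in Mirc11-/-, -0.67 to -0.32 between the genotypes at rest, -1.85 to -0.92 after challenge and -1.54 to -0.83 for the difference of responses. Ifi47, which did not pass the test at rest with a log2 difference of 0.0043, changed sign there to -0.0126 without wild-type replicate 2, -0.0124 without Mirc11-/- replicate 3 and -0.00843 without Mirc11-/- replicate 4, within -0.0126 to 0.0348 over all libraries left out in turn; the cause was not tested. Deviations of same-numbered libraries correlated at -0.458 to 0.347. They were not compared with those of differently numbered libraries, so this does not decide whether replicate numbers pair the libraries. With the replicate number as a block, 7 members rose in each genotype, 3 were lower at rest, and 7 were lower after challenge and had a smaller response, under either number in the titles. With that block 1185 genes fell in challenged Mirc11-/- libraries in place of 1915. Genes lower at rest numbered 846 in the full fit and 504 to 971 with 1 library left out, with 550 without wild-type replicate 2, 504 without wild-type replicate 3 and 548 without Mirc11-/- replicate 3. Upper-quartile scaling moved the median of all genes for wild-type challenge to -0.12, and the share of higher among called genes from 57.5% to 46.7% for challenge in Mirc11-/-, where the members still rose, and from 46.7% to 56.7% between challenged genotypes.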
